A study of Homo sapiens with 6 samples.

Results

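The sites described here are p300 peaks that no peak of the other 2 factors of the study touched, called p300-alone sites below. They were selected on peak positions: a p300 peak was kept when it shared not even 1 bp with a DPF3a or SMAD4 peak, when its summit lay on chromosomes 1 to 22 or X, and when the summit lay outside the coding exons of canonical protein-coding transcripts. Of 20380 p300 peaks, 6385 touched neither list. Of these, 22 lay on other sequences and 741 had a summit in a coding exon, which left 5622 sites. A summit within 1000 bp of an annotated transcript start made a site a promoter site (556), and the other 5066 sites were distal. The 12611 p300 peaks that touched DPF3a or SMAD4 and passed the same 2 filters (7478 promoter, 5133 distal) serve for comparison and are called shared sites. All 3 lists together held 118277 peaks.

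Chromatin of 786-O cells, an established cell line of clear cell renal cell carcinoma, was immunoprecipitated with antibodies against p300, SMAD4 and the HA tag of DPF3a, and the DNA was sequenced (ChIP-seq). DPF3a, an isoform of the SWI/SNF subunit DPF3, was pulled down through its tag in cells that overexpressed it, and that chromatin was fixed with DSG (disuccinimidyl glutarate) before formaldehyde. For p300 and SMAD4 the chromatin was fixed with formaldehyde alone, and the labels do not say whether those cells overexpressed DPF3a. Each factor had 2 replicate libraries, 6 samples in all, but 1 peak list made from both, so that no spread between replicates exists for any value here and no test of a difference between conditions was possible. No control library is named. Intervals on shares are 95% Wilson intervals and cover counting error only. The lists differ in depth (the background levels correspond to 27.6 M reads for p300, 15.8 M for DPF3a and 30.4 M for SMAD4), so a site without a DPF3a or SMAD4 peak may still have carried reads of those factors below the peak threshold.

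p300, encoded by EP300, is a histone acetyltransferase and coactivator. It does not recognise a DNA sequence of its own but is brought to enhancers and promoters by transcription factors, where it acetylates histones, and its ChIP-seq peaks are widely used to map active enhancers. Alu elements, the most abundant short interspersed repeats of the human genome, descend from 7SL RNA, the RNA of the signal recognition particle. They consist of a pair of similar arms, carry an internal promoter for RNA polymerase III and are rich in GC compared with much of the DNA around them.

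Many distal p300-alone sites lay on such sequence. A window of 299 bases around each summit was aligned to RN7SL1, the 7SL RNA gene transcript of the GENCODE annotation, and counted as 7SL-related with at least 50 aligned bases at 70% identity or more. A second reference was the most connected distal site, to which 222 of 257 other 7SL-related distal sites aligned over at least 200 bases.

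7SL-related sequence was found in 2563 of 5066 distal p300-alone windows (50.6%, 49.2 to 52) and in 159 of 556 promoter windows (28.6%, 25 to 32.5). Among shared sites it was found in 437 of 5133 distal windows (8.51%, 7.78 to 9.31) and 125 of 7478 promoter windows (1.67%, 1.40 to 1.99). Windows of the same length placed every 50000 bp along the genome, 58169 in all, gave a background of 9.39%. The pair of windows 2000 bp to either side of the distal p300-alone summits held it in 7.38% (748 of 10132), so the share at the summits stood out from the sites' own surroundings. The sites that only DPF3a or only SMAD4 occupied, chosen by the same rule, did not resemble the p300-alone sites in this respect, with 5.99% (5.62 to 6.38) of 14816 distal DPF3a sites and 5.73% (5.18 to 6.34) of 6156 distal SMAD4 sites. Seen from the sequence, 2722 of the 3284 7SL-related p300 peaks outside coding exons touched no other peak (82.9%), against 2900 of the other 14949 (19.4%). No interval of the p300-alone shares overlapped one of the compared groups. Copies of a repeat resemble each other, so reads may be misplaced among them although those of mapping quality under 30 were removed. With no control library, binding of p300 at these elements and DNA from another source cannot be told apart.

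**Figure D1:**
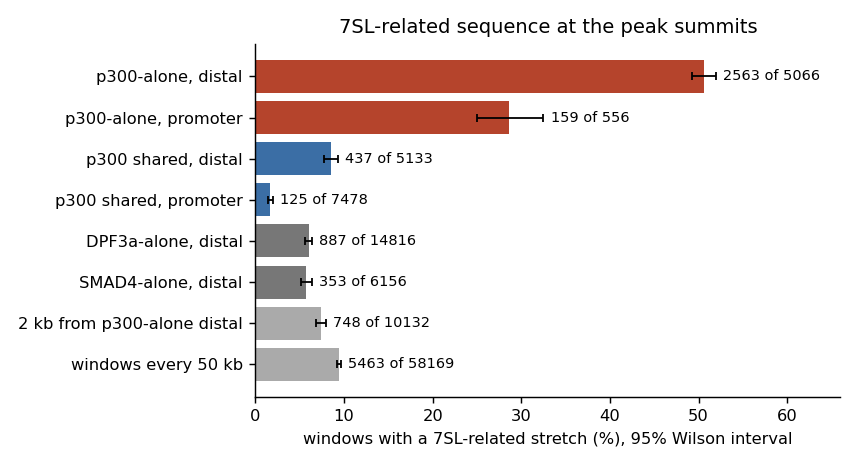
Percentage of windows of 299 bases that hold 7SL-related sequence, by group of sites, with 95% Wilson intervals; the number of windows stands beside each bar. Distal p300-alone sites reach 50.6% and promoter p300-alone sites 28.6%, while the shared sites, the sites of DPF3a or SMAD4 alone, the flanking windows and the windows every 50 kb all lie under 10%.

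A site counts as 7SL-related only if a long enough stretch is found, so older or cut copies are missed. Alignment to the most connected site over at least 100 bases found 3013 distal p300-alone sites (59.5%), against 560 shared distal sites (10.9%) and a background of 12.7% of the windows along the genome. With either match, 3049 distal sites (60.2%, 58.8 to 61.5) and 191 promoter sites (34.4%, 30.5 to 38.4) were related to this element. The difference from shared sites was also present among peaks of like height. At 14 to 15 reads, 1432 of 2786 distal p300-alone sites were 7SL-related (51.4%, 49.5 to 53.3) and 88 of 443 shared distal sites (19.9%, 16.4 to 23.8). The share among p300-alone sites was 51.8% at 16 to 17 reads and 52% at 18 to 20 reads, then 40.6% at 21 to 24 reads and 16.7% (13 of 78) at 25 reads or more. Among shared sites it ran from 15.1% at 16 to 17 reads to 3.26% at 25 or more. In both kinds of site the higher peaks held fewer of these elements. At the lowest background, the genome-wide level, 52.5% of distal p300-alone sites and 18.2% of shared distal sites were 7SL-related.

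**Figure D2:**
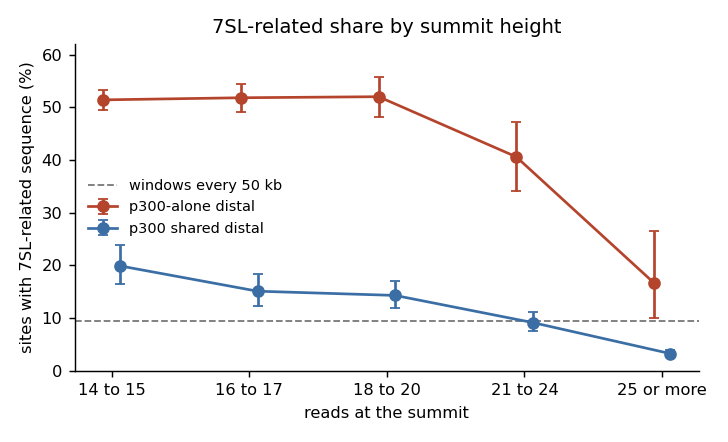
Percentage of distal p300 sites with 7SL-related sequence by the number of reads at the summit, with 95% Wilson intervals, and the level of the windows placed every 50 kb (dashed). The p300-alone sites stay near 52% up to 20 reads and lie above the shared sites in every class of height.

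Within the element the summits were not at the ends. On the most connected site the summits of 2865 distal sites could be placed, with a median at base 157 of 299 (quartiles 114 and 205), and 75.6% fell between bases 75 and 225. The alignment needs element sequence around the summit, which by itself favours the middle. Identity to the most connected site had a median of 81.2% (quartiles 79.5 and 82.6) over a median of 252 aligned bases. The 7SL-related windows along the genome had nearly the same identity, 81.1%, over 219 aligned bases. Of 1604 elements within a single strand's protein-coding genes, 674 lay on the strand of the gene (42%, 39.6 to 44.5), against 45.9% (44 to 47.7) of such windows along the genome.

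The elements under p300-alone sites differed in their surroundings from others of their kind. Mean GC content over all distal p300-alone sites was 53.5% next to the summit and 38% at 975 bp from it. For the 7SL-related distal sites, median GC content was 53.2% within 100 bp of the summit and 35% in the flanking windows 500 bp away (quartiles 31 and 41). The 7SL-related windows along the genome had 49.8% and 42% (quartiles 35 and 49), and all windows along the genome had 40% in their flanks. A second 7SL-related stretch was found in 8.60% (441 of 5126) of the windows 2000 bp from these sites, but in 16.9% (1850 of 10926) of the windows 2000 bp from the genome's 7SL-related windows. The 7SL-related distal sites thus lay in DNA of lower GC content, with fewer such elements beside them, than elements of this kind along the genome. Over 23 chromosomes, the density of distal p300-alone sites and the share of 7SL-related windows had a Spearman rho of 0.0326, given as a description.

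**Figure D3:**
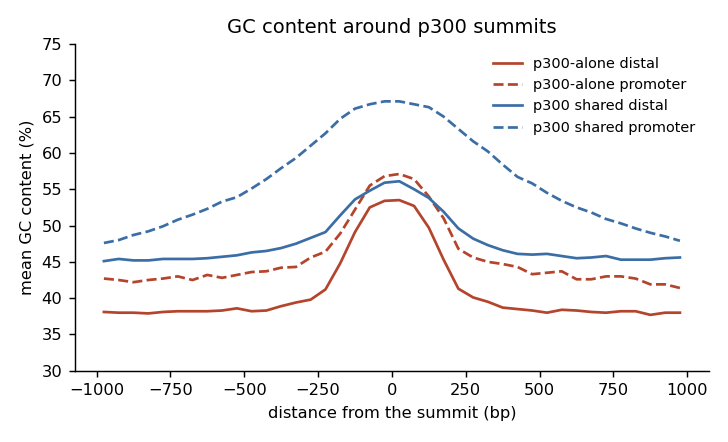
Mean GC content in steps of 50 bp by distance from the p300 summit, for distal (solid) and promoter (dashed) sites, p300-alone and shared. Distal p300-alone sites show a narrow hump that reaches 53.5% and falls to 38% on both sides, whereas the shared sites lie on a broader base.

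The distal sites without either match also held repeated sequence. Of these 2017 sites, 852 aligned to another such site over at least 80 bases, and 776 fell into 11 groups of at least 10 related sites, the largest of 437, 77, 67, 55 and 35 sites. Among the 4554 shared distal sites without a match, 322 aligned to another and 151 fell into 4 such groups. Together with the sites of either match, 3825 of 5066 distal p300-alone sites (75.5%, 74.3 to 76.7) and 730 of 5133 shared distal sites (14.2%, 13.3 to 15.2) had a match to 7SL RNA or to the most connected p300-alone site, or fell into a group of their own class. Of the windows along the genome 13.5% had either match. Groups were not formed among those windows, so these totals have no background. The most connected site was also chosen among p300-alone sites. The most connected window of the second largest group, chr7:108580216-108580514 (hg38, plus strand), is given to show what such a group holds. It has no 7SL-related stretch and is printed in lower case throughout.
Group of 77 sites: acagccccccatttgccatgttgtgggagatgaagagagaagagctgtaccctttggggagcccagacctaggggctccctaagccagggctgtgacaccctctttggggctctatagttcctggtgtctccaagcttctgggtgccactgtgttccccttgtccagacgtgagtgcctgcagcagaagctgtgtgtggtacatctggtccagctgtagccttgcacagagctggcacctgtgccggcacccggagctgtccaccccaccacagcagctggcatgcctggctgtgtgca
The families of these repeats were not assigned, as no repeat annotation was used. Groups form by chains of alignments, so that 2 members of a group need not align to each other. The peak shown had 15 reads. Flanking GC content of the distal sites without either match was 41% at the median (quartiles 36 and 47), and summit GC content was 53.7%.

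Several motifs of transcription factors that bring p300 to DNA were scarce. The AP-1 site (TGACTCA or its reverse complement TGAGTCA) was found within 50 bp of 1.24% of distal p300-alone summits (0.97 to 1.59), which was no more than in their flanking windows (1.54%) or in windows of that length along the genome (1.51%). Shared distal sites had it at 10.3% (9.54 to 11.2) against 2.03% in their flanks. The share was also low away from the repeats: without either match, 28 of 2017 distal p300-alone sites had it (1.39%, 0.96 to 2). RUNX (TGTGGTT or TGCGGTT) was at 1.11% of distal summits and 2.17% of flanks, TEAD (GGAATGT) at 0.55% and 1.60%, STAT (TTCNNNGAA) at 1.01% and 2.82%, and the CCAAT box at 7.94% and 15.4%. Each of these was rarer at the summits than beside them over all distal sites. Without either match, RUNX (1.59% against 2.48% in the flanks), TEAD (1.24% against 1.78%) and STAT (2.08% against 2.88%) had overlapping intervals at summits and flanks. The CCAAT box was still rarer at the summits without either match, at 12.1% (10.8 to 13.6) against 15.7% (14.2 to 17.4) in the flanks. With either match TEAD was at 0.0984%, STAT at 0.295% and the CCAAT box at 5.15% of summits. In contrast, RUNX and TEAD were more frequent at the shared distal summits (4.81% and 2.81%) than in the shared flanks (2.01% and 1.27%). At p300-alone sites a pair of GC-rich motifs was more frequent at summits than in flanks: the E-box CACGTG was at 1.5% of summits and 0.71% of flanks, and the SP/KLF box GGGCGGG at 0.89% and 0.30%. Both summit shares were below those of shared distal sites (2.47% and 2.69%). Without either match, the E-box was at 1.83% of summits and 1.14% of flanks, with overlapping intervals. The SP/KLF box was at 1.44% and 0.496% there, with intervals that did not overlap. The motif windows hold 101 bases on the summit and 2 stretches of 50 bases in the flanks, and GC content differs between them as described above. Some rare motifs were not lower at the summits. The CRE (TGACGTCA) was at 6 of 5066 distal p300-alone summits (0.118%) and the NRF1 site at 7 (0.138%), with 0 matches of either in the flanks. Summit and flank intervals overlapped for both. Shared distal summits had them at 0.136% and 0.0584%. A SMAD palindrome (GTCTAGAC) was found at 0 of 5066 distal summits, which allows a share of up to 0.0592% (3 counts). It was at 2 of 5133 shared distal summits and in 0.0533% of windows along the genome, so that no difference could be read at this number of sites.

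Single distal p300-alone sites with an AP-1 match did occur. The strongest by −log10 q outside 7SL-related sequence and exons, in intergenic sequence on chr10:30494360-30494460 (hg38, plus strand), had 33 reads over a background of 5.84 and lay 3012 bp from the nearest peak of another factor. It is set beside the distal site of highest −log10 q, chr21:8219796-8219896. Capitals mark the AP-1 match in the first window and the 21 bases centred on the summit in the second.
Distal site with an AP-1 match: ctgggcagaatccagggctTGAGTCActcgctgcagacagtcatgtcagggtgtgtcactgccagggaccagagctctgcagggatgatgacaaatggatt
Distal site of highest −log10 q: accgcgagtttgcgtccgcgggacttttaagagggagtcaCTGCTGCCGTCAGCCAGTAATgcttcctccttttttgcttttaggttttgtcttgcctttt
The second holds none of the 21 motifs searched within 50 bp of its summit.

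The p300-alone sites were low peaks. Read height at the summit and local background were recovered from the deposited fold enrichment and −log10 p of each peak. Fold enrichment is the height plus 1 over the background plus 1, and −log10 q is the caller's adjusted significance. Distal p300-alone sites had a median height of 15 reads (quartiles 14 and 17) and promoter sites 16 (14.8 and 19), against 24 (19 and 32) and 28 (23 and 33) at shared sites. At the genome-wide background of 2.05 reads, 14 reads were the fewest that passed the authors' score of 50, and 29.7% of distal p300-alone sites (1506 of 5066) were exactly such peaks, against 3.45% of shared distal sites (177 of 5133). Fold enrichment did not show this. Its median was 4.92 in distal p300-alone sites, the value of 14 reads over that background, and 4.70 in shared distal sites, whose median background was 4.50 reads. The peaks were also narrow, with a median width of 274 bp for distal and 299 bp for promoter sites, against 458 and 763 bp for shared sites. Only 77 distal sites (1.52%, 1.22 to 1.90) and 16 promoter sites (2.88%, 1.78 to 4.62) had a score over 100, compared with 21.3% and 30.7% of shared sites. Whether height by itself decided which peaks touched another list was not tested.

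**Figure D4:**
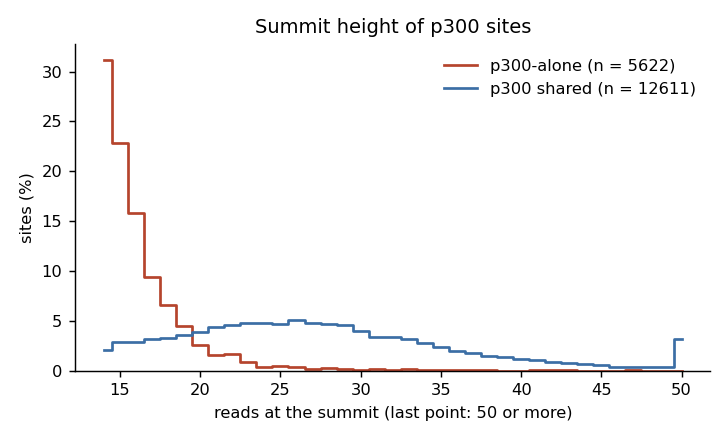
Distribution of read height at the summit in p300-alone (n = 5622) and shared (n = 12611) p300 sites, as a percentage of each group; the last point holds sites of 50 reads or more. Of the p300-alone sites 31.2% have 14 reads and 22.8% have 15, whereas shared sites spread up to 50 reads and beyond.

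The gaps between p300-alone sites and the peaks of the other factors varied widely. The rule itself left out every touching peak, and no gap was measured for windows along the genome. Whether these gaps are large is therefore not known. The median gap to the nearest DPF3a or SMAD4 peak was 14338 bp for distal sites (quartiles 5452 and 34888) and 11538 bp for promoter sites (1600 and 30889). A gap of at most 1000 bp was found for 480 distal sites (9.47%, 8.70 to 10.3) and 118 promoter sites (21.2%, 18 to 24.8). The 3 members nearest to another peak lay 0, 1 and 1 bp from it, on chr1:72282046-72282652, chr1:158149205-158149553 and chr4:22978983-22979512, with 27, 22 and 16 reads and fold enrichments of 5.30, 4.41 and 5.58. The 3 peaks left out by the smallest overlaps, of 1, 2 and 4 bp, had 16, 15 and 17 reads and fold enrichments of 4.89, 5.25 and 5.70. In all, 74 members had a gap of at most 100 bp, and 103 shared sites overlapped another peak by at most 100 bp.

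Of the distal p300-alone sites, 57.5% lay in a protein-coding gene (56.1 to 58.8), against 48.1% (46.7 to 49.4) of shared distal sites. Only 2.88% lay in an exon of any transcript, but the rule had left out summits in canonical coding exons. No share in genes was taken for windows along the genome. The density of distal p300-alone sites ran from 0.0387 per Mb on chromosome X, 0.121 on chromosome 14 and 0.194 on chromosome 13 to 4.15 on chromosome 5, 4.21 on chromosome 8 and 5.35 on chromosome 7. Shared distal sites ran from 0.316 per Mb on X to 2.77 on chromosome 17. On chromosomes 5, 7 and 8 the p300-alone sites outnumbered the shared ones (752 to 335, 850 to 423 and 610 to 270). They did so by less on chromosomes 3, 4 and 9 (358 to 300, 165 to 150 and 351 to 319). On all other chromosomes p300-alone sites were fewer, among them 11, 14, 19, 22 and X (69 to 200, 11 to 40, 12 to 113, 11 to 101 and 6 to 49). Windows along the genome lay on chromosomes 5, 7 and 8 in 16.7% of cases, the distal p300-alone sites in 43.7% (42.3 to 45) and the promoter p300-alone sites in 32% (28.3 to 36). These 3 chromosomes were chosen with earlier results of these data known and have the highest densities of distal sites. An excess of distal sites there follows from that choice, and its interval does not cover the choice. Both kinds of sequence were found there in excess of the windows along the genome. Of the 7SL-related distal sites 41.9% (40 to 43.8) lay on these 3 chromosomes, and of the sites without either match 46.1% (43.9 to 48.3), intervals that do not overlap. On chromosome 5 alone, 43.1% of distal sites were 7SL-related (39.6 to 46.7), on chromosome 7 51.1% (47.7 to 54.4), and outside chromosomes 5, 7 and 8 52.2% (50.3 to 54).

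**Figure D5:**
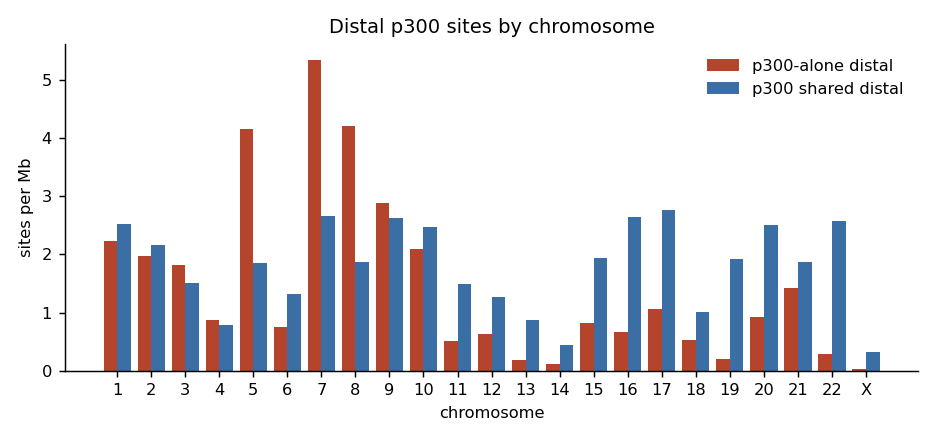
Number of distal p300-alone and shared p300 sites per Mb of sequence on each chromosome. The p300-alone sites exceed 4 per Mb on chromosomes 5, 7 and 8 and fall under 0.3 per Mb on chromosomes 13, 14, 19, 22 and X.

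On chromosome 7 the distal p300-alone sites ran along the whole length, with 839 in the first 150000000 bp (5.61 per Mb) and 11 to 134 in each bin of 10 Mb. On other chromosomes they were gathered in long stretches. The first 50000000 bp of chromosome 5 held 595 distal p300-alone sites (11.9 per Mb), the next 50000000 bp held 1, and the stretch from 100000001 to 150000000 held 130. Shared distal sites numbered 134, 18 and 113 there. On chromosome 8 the first 40000000 bp held 4 p300-alone sites and the stretch from 50000001 to 140000000 held 580. On chromosome 9 the counts were 27 up to 60000000 and 318 from 70000001 to 130000000. On chromosome 3 they were 46 up to 90000000 and 282 from there to 190000000. The 7SL-related windows along the genome did not follow these steps, with 6.73% in the first and 8.71% in the second stretch of chromosome 5. Of 292 bins of 10 Mb, 25 held no distal p300-alone site.

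The local background of the other libraries moved with these counts. In the 3 stretches of chromosome 5 the median background under distal SMAD4 peaks was 5.66, 2.52 and 4.46 reads, and under distal DPF3a peaks 3.42, 1.80 and 3.03 reads. On chromosome 8 it was 3.16 and 5.40 reads for SMAD4 and 2.15 and 3 for DPF3a. The stretches of chromosome 3 differed less, with 3.85 and 4.40 reads for SMAD4 and 2.28 and 2.88 for DPF3a. The number of DPF3a or SMAD4 peaks changed less: chromosome 5 had 458, 313 and 562 distal SMAD4 peaks and 645, 508 and 782 distal DPF3a peaks in these stretches. Over the 292 bins, Spearman's rho between the number of distal p300-alone sites and the median background was 0.524 for SMAD4 and 0.581 for DPF3a, given as a description over bins that share libraries. Between the numbers of distal p300-alone and shared distal p300 sites it was 0.577. Over the 23 chromosomes, rho between the density of distal p300-alone sites and the median p300 background under shared distal sites was 0.287. With the background of distal DPF3a and SMAD4 peaks it was 0.604 and 0.507. The background was solved from the peaks of each list, so it is known only under peaks. What part the background had in the number of sites was not tested.

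The longest runs of distal p300-alone sites, with neighbours at most 100000 bp apart, lay in the same stretches. The longest, 61 sites between chr5:38743100-40374843, spanned OSMR, RICTOR, FYB1, C9 and DAB2. RICTOR encodes a subunit of the mTORC2 kinase complex and OSMR the oncostatin M receptor. Of its sites 31 were 7SL-related, and the same interval held 6 shared distal p300 sites. The second, 29 sites between chr5:27908925-28798878, held no protein-coding gene, 13 7SL-related sites and 1 shared site. The third, 23 sites between chr8:105918780-106723218 around OXR1, an oxidation resistance gene, held 12 7SL-related sites and 2 shared sites. In these runs the median height was 15 or 16 reads, as over all distal sites. Of the 5066 distal sites 3119 had a neighbour within that distance, in 909 runs.

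The 10 distal sites of highest −log10 q were not typical of the class, as their heights of 24 to 61 reads show. The first lay at chr21:8219634-8220045 in an intron of a lncRNA (ENSG00000278996), 7274 bp from RNA5-8SN2, a gene of the 5.8S ribosomal RNA. It had 47 reads over the genome-wide background, a fold enrichment of 15.8. The second, in a lncRNA intron (ENSG00000290523), had 34 reads and was 2197269 bp from any DPF3a or SMAD4 peak. The tallest peak, at chr19:17866686-17867530, had 61 reads over a background of 12.1 and lay 289 bp from another peak. A site in a pericentromeric lncRNA, PDE4DIPP4, had 26 reads, and one at chr6:26312957-26313268, 9211 bp from the start of the histone pseudogene H3C9P, had 37. Sites with 24 reads each lay in introns of RICTOR and of RAI14, an ankyrin-repeat protein of actin structures, and in intergenic sequence of chromosomes 5 and 10. Of the 10 sites 4 were 7SL-related.

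The promoter sites, 9.89% of all p300-alone sites (9.14 to 10.7), were few. Along the genome 7.10% of windows were as near to a transcript start, and among shared sites promoters were the larger class, with 7478 of 12611. They also differed in kind from shared promoter sites. The median distance from summit to start was 328 bp (quartiles 109 and 599), against 119 bp (51 and 231) at shared sites. A canonical protein-coding start was within 1000 bp of 133 of 556 sites (23.9%, 20.6 to 27.6), against 5962 of 7478 shared sites (79.7%, 78.8 to 80.6). Pseudogene starts were the only ones nearby at 97 sites (17.4%, 14.5 to 20.8), against 68 shared sites (0.909%, 0.718 to 1.15). Windows with the GC and CpG content of CpG islands (GC over 55%, CpG ratio over 0.6) were found at 26.4% (22.9 to 30.3) and 77% (76 to 78). The 133 sites at canonical starts were less often 7SL-related (9.77%, 5.80 to 16) than all 556, yet more often than the shared ones (1.07%, 0.842 to 1.37). The ETS motif CCGGAAGT was within 50 bp of 0 of 556 promoter summits, where 3 counts would be 0.540% and the Wilson interval reaches 0.686%. Among shared promoter summits it was found at 0.842% (0.659 to 1.08).

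The strongest promoter sites lay at few standard promoters of protein-coding genes. The highest −log10 q, 18.2, belonged to chr11:94237473-94238701 at the start of a lncRNA (ENSG00000250519), with 35 reads. The second, at chr21:35599588-35600027, lay in an intron of RUNX1, a haematopoietic transcription factor, on the processed pseudogene EZH2P1, with 33 reads. The third, chr12:11752397-11752728, lay 91 bp from an internal start of ETV6, an ETS-family repressor, with 33 reads. The fourth, chr21:8419989-8420562, had the highest fold enrichment of the class, 8.20, and lay in an intron of a lncRNA (ENSG00000280441) on the same short arm as the strongest distal site. The tallest promoter peak, chr2:127700601-127700936, had 47 reads over a background of 10.3, 742 bp from SFT2D3 and 222 bp from another peak. Other sites among the 10 were near CPED1, SRRM1 (a splicing coactivator) and the 5′ UTR of ZPBP, a sperm protein gene.

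In protein-coding genes, 342 of 19962 (1.71%) had a p300-alone site within 1000 bp of a start, compared with 7101 (35.6%) with a shared site, and 179 of the 342 had both (52.3%). Lists of genes were read against this background without a test. Aminoacyl-tRNA synthetases, which charge tRNAs, had p300-alone sites at 4 of 35 genes (11.4%), among them RARS1 (19 reads), LARS2 (14) and KARS1 (23). All 4 sites were 7SL-related and lay upstream of a start, by at most 1000 bp. SWI/SNF subunits had them at 3 of 28 (ARID1A, SMARCA2 and SMARCD3), and acetyltransferases, deacetylases and p300 partners at 4 of 39 (EP300, HDAC9, HDAC8 and KAT6B). The ARID1A site, 564 bp downstream of a start, had 43 reads over a background of 13.3 reads, and the EP300 site, upstream of a start, had 33 reads over 5.96. Of 14 p300 peaks counted for EP300, 13 had a summit in a coding exon. With no control library, binding of p300 at the EP300 site and DNA from another source cannot be told apart. Splicing factors had them at 5 of 59 (SF3B1, SNRPA1, SRSF3 and PRPF18 among them), hypoxia genes at 2 of 26 (KDM3A, a histone demethylase, and P4HA1, a collagen prolyl hydroxylase) and proteasome subunits at 2 of 39 (PSMC2 and PSMD1).

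The other lists had at most 1 gene, apart from the zinc finger genes. Their shares, 1.15% to 3.57% in the lists with 1 gene, lay on both sides of the background of 1.71%, and 1 gene sets each of them. Single genes were found for oxidative phosphorylation (SDHA, 1 of 87), translation initiation factors (EIF3E, 1 of 53), replication-dependent histones (H4C8, 1 of 69), clustered protocadherins (PCDHB16, 1 of 53), TGF-beta and BMP signalling (SMAD9, 1 of 46), cell movement (ITGAV, 1 of 28), DNA replication (ORC4, 1 of 44) and DNA repair (FANCL, 1 of 43). Zinc finger genes had 5 of 508 (0.984%), with the site shared by ZNF568 and ZNF829 and those of ZNF577 and ZNF875 on chromosome 19. No gene with a p300-alone promoter site was found among 85 cytosolic and 78 mitochondrial ribosomal protein genes, 39 HOX genes, 400 olfactory receptors, 23 renal lineage factors and 14 AP-1 and ATF subunits. At the background of 1.71%, these lists other than the olfactory receptors are too short for an empty list to be read as an absence. The olfactory receptors had no shared promoter site either. Shared sites stood at 52 of the 85 and 40 of the 78 ribosomal protein genes, which transcribe at high levels in growing cells. In SMAD9, a receptor-regulated SMAD of the BMP branch, the site had 17 reads 878 bp downstream of a start.

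Pseudogene exons held 62 p300-alone summits, 58 of them promoter sites (10.4%, 8.16 to 13.2, of promoter sites) against 53 of 7478 shared promoter sites (0.709%, 0.542 to 0.926). Of these 62 sites 1 was 7SL-related. The pseudogenes were named for a parent gene in 40 cases, with 36 parents. Coding exons of 5 of these parents (13.9%), EZH2, CCND2, BRAF and MAP2K1 among them, also held p300 summits that touched no other peak, against 1.31% of all protein-coding genes (262 of 19962). EZH2P1 had 33 reads, BRAFP1 26, CCND2P1 22 and MAP2K1P1 19. PTENP1 had a pair of sites with 17 and 15 reads. A pseudogene of this kind is a near copy of its parent's mRNA, and reads of the parent's exons may be placed on it, so that these sites are uncertain although reads of mapping quality under 30 were removed. With no control library, binding of p300 at these sites and DNA from another source in the p300 libraries cannot be told apart.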

How the data were processed

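ChIP-seq peaks of p300, DPF3a and SMAD4 in 786-O cells were taken as deposited, 1 list per factor made from 2 replicates, with samples grouped by the factor in their titles. Per the submitters' processing notes and the study's methods, the authors used cutadapt, Bowtie2 2.3.5.1 on hg38, a mapping quality of at least 30, Picard duplicate removal and MACS2 2.2.5, and how the replicates were combined is not given in the sources used here. The deposited score is 10 times −log10 q rounded down, and the authors kept scores over 50. The deposited fold enrichment is a ratio of pileup to local background, each plus 1. The −log10 p and −log10 q deposited by the authors compare both under a Poisson model. Height in whole reads and background were solved from the fold enrichment and −log10 p, with an error in −log10 p of at most 2.12e-04 in the p300 list. Depth assumes fragments of 200 bp and 2.7 Gb.

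Overlaps were computed in Python 3.11.15 and checked against bedtools 2.31.1, annotation came from GENCODE 44, and sequence from hg38 was aligned with blastn 2.17.0 with no repeat annotation. GC content was taken over 100 bp to either side of a summit. Motifs were exact matches on both strands, with flank windows of 50 bp centred 500 bp away. The code was tested on simulated data. Members, gene lists and motifs were chosen with earlier results of these data known. The text names the 10 promoter and 10 distal sites of highest −log10 q, the 3 of highest fold enrichment in each class, up to 4 sites per gene list, the 3 longest runs and the sites at the edge of the rule. The 7SL comparison, the pseudogenes and the windows of 299 bases were added after the values were seen, the last in place of windows of 101 bases planned for all printed sites. Coding-exon summits and other sequences were left out by the rule. Some of the genes, sites and sequences that these choices named are not reported here.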

Additional observations from a re-analysis of the deposited data

How the results depend on the processing

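No paired analysis was possible because the replicates of a factor were merged into 1 list, and for the same reason no replicate could be left out. Of 39 alternatives, 17 stayed within the interval of the value given (for counts, within 1.5 times) and 22 moved. Read height, counted among those that moved, is in another unit than fold enrichment and could not have stayed. A score over 100 left 93 sites, and 10 protein-coding genes with a promoter site in place of 342. It also set the promoter share at 17.2%, the share on chromosomes 5, 7 and 8 at 51.9% and the 7SL-related share of distal sites at 37.7%, against 2.66% of shared distal sites of such scores. The promoter share was 6.74% within 500 bp of a start, 17% within 2500 bp and 6.08% with starts of protein-coding genes only. It was 8.72% with no other peak within 1000 bp, 22.4% with 0.5 reciprocal overlap in place of 1 bp, 11.7% without chromosomes 5, 7 and 8 and 13.7% without 7SL-related sites. Within 500 bp of a start 226 protein-coding genes had a site. The share on chromosomes 5, 7 and 8 was 39.5% under the overlap of 0.5 and 45.5% without 7SL-related sites. In place of the fold enrichment of 4.92, read height gave 15 reads, and in that measure the distal p300-alone sites were below the shared ones, not above. The AP-1 share was 3% in windows of 100 bp to either side and 1.64% without 7SL-related sites. The 7SL-related share of distal sites was 44.4% under the overlap of 0.5 and 52.2% without chromosomes 5, 7 and 8. It was 20.4% in windows of 50 bp to either side (2.71% of shared distal sites) and 0.0395% with at least 100 aligned bases, since matches to 7SL RNA had a median of 74 bases. The alternatives on 7SL-related sequence were chosen after seeing the data. With no control library and 15 reads at a median peak, counting error limits every single site.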

Other observations

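The p300 peaks that touched no other peak but had a summit in a canonical coding exon, 741 in 262 genes, differed from the sites described above. Their median height was 21 reads (quartiles 17 and 27), median GC content was 49.3% at the summit and 40% in the flanks, and 1 of the 2111 coding-exon summits of the whole p300 list was 7SL-related. Their number differed from gene to gene. LRP1B, a large lipoprotein receptor gene, held 57, ROS1 21, ATM 20, NOTCH2 17, CREBBP 16, and ALK, CHD2, JAK2 and ROBO2 15 each. EP300 itself held 12 and PIK3CA 11. With no control library, binding of p300 to coding exons and DNA from another source in the p300 libraries, such as another type of library, cannot be told apart.

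Some p300-alone sites lay in coding exons that the rule does not count, because they belong to transcripts other than the canonical one. There were 21 such sites in 20 genes (12 distal, 9 promoter), and 11 of these genes were among the 262 above, which make up 1.31% of protein-coding genes. The IKZF1 site had 23 reads and the RUNX1T1 site 18. ROBO2 held a pair of sites with 16 and 15 reads, CDKN2A had 1 with 16 and NF1 1 with 17. These genes were named after their values were seen, and the same limit holds for these sites.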
